A study of Mus musculus with 6 samples.

Results

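The 10 genes described here are 4 cytokines of the interleukin-6 (IL-6) family (Il6, Il11, Lif and Osm), 4 chains of their receptors (Il6ra, Il6st, Lifr and Osmr), the transcription factor Stat3 and its feedback inhibitor Socs3. They were taken by symbol from the 25965 genes of the deposited sheet, and all 10 were found. Whole-lung RNA was sequenced from 6 chimeric mice labelled ZBTB46 DTR, which carry the diphtheria toxin receptor under the control of Zbtb46. This gene marks classical dendritic cells and is also active in endothelium. The PBS group (3 mice) was given vehicle. The DT group (3 mice) received 3 doses of diphtheria toxin: 40 ng/g on the day before hypoxia, then 8 ng/g at intervals of 3 days. All 6 mice carried the receptor and breathed 10% oxygen for 7 days, so neither the toxin alone nor hypoxia alone has a comparison here. No source used here states the age, sex or strain of the mice, or how the chimeras were made and which host cells they kept. The study asked which lung processes accompany protection from hypoxic pulmonary hypertension when classical dendritic cells are depleted.

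Most cytokines of the IL-6 family bind a receptor chain of their own and then recruit the shared signalling chain encoded by Il6st. This chain activates Janus kinases and through them the transcription factor STAT3. STAT3 switches on Socs3, whose product binds the shared chain and ends the signal. In the lung, macrophages, endothelium, fibroblasts and smooth muscle are known to make IL-6, and IL-6 is known to promote muscularisation of small pulmonary arteries.

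No member of the family passed the test between toxin-treated and control lungs, but the levels of Il6, Il11 and Osmr did not overlap between the groups and were higher in every DT mouse. Il6 transcripts averaged 1.09 ± 0.624 RPM (the reads-per-million scale; SD, n = 3) in PBS and 2.75 ± 0.204 in DT, the widest ratio of the 10 (2.53). Il11 averaged 2.22 ± 0.173 and 3.09 ± 0.0462 RPM. Osmr averaged 103 ± 3.30 and 114 ± 8.40 RPM. The means of the shared receptor chain Il6st, of Lifr and of Stat3 differed by less than the SD of the DT mice, and their groups overlapped. For Il6st and Stat3 the difference exceeded the smaller SD of the PBS mice. Over all 16708 genes tested, 0.275% were called higher and 0.00599% lower in DT (limma on log2(RPM + 1), Benjamini-Hochberg, adjusted p under 0.05), and 0 of the 10 members were called in either direction. At an unadjusted p under 0.05, 4 members were higher and 0 lower, against 5.0% and 4.03% of all genes. The groups did not overlap for 3 members, all higher in DT, against 7.65% of all genes in that direction and 6.79% in the other. Of the 10 log2 fold changes 9 were positive, with a median of 0.18, while the median of all genes tested was 0.00 and 50.4% of them were positive.

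The upstream sequence of the 3 cytokine genes with the largest differences is shown with the motifs found there. These genes were picked by their differences and the motifs after the data were seen, so the matches are a description only. Capitals mark TGANTCA, the motif of the AP-1 factors, and a form of the NF-kappaB motif, both searched on either strand from 250 bases before to 50 bases after each RefSeq start (build GRCm38.p6, mm10 coordinates). The 250 bases before the start of Il6 (chr5:30012864-30013113, plus strand), of the downstream start of Il11 (chr7:4778142-4778391, minus strand) and of Lif (chr11:4257318-4257567, plus strand) read as follows.
Il6: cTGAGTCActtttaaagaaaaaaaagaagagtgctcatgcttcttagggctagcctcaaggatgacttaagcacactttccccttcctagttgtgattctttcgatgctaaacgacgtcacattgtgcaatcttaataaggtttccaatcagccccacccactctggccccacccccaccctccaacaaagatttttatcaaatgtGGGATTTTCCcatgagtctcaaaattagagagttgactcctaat
Il11: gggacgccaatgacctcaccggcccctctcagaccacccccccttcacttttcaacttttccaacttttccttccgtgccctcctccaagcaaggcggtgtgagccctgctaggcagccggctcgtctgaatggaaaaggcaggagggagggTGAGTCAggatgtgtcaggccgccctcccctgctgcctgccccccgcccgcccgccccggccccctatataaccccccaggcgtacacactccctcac
Lif: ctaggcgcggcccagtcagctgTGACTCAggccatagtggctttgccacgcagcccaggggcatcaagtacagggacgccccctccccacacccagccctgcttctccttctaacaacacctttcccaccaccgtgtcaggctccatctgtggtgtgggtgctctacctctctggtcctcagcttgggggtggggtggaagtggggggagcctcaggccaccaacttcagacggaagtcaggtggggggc

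Counted from the start as base 1, the AP-1 motif begins at base -249 in Il6, at -98 from the downstream start of Il11 and at -228 in Lif. It also lies at bases 4 to 10 of the Osmr transcript, as TGATTCA. No other window of the members held this motif, including that of the upstream start of Il11. Of the 32851 promoter windows of this length in the RefSeq table, 7.81% hold TGANTCA. The NF-kappaB form, found in Il6 from base -44 to -35 as GGGATTTTCC, occurs in 1.63% of windows. The STAT motif TTCNNNGAA occurs in 8.30% of windows and among the members only in Socs3, as TTCTTAGAA from base -154 to -146. Windows were found for 9 of the 10 members, with 2 starts each for Il11 and Lifr. Osm had no window and was not searched for any motif. A match describes the letters of the window and is no evidence of binding.

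Il6 (mm10 chromosome 5, 30013161 to 30019968), the founding cytokine of the family, stood at 1.72, 1.07 and 0.472 RPM in PBS mice 1 to 3 and at 2.98, 2.60 and 2.67 in DT mice 1 to 3. Every DT mouse lay above every PBS mouse, and the PBS mice were spread much more widely than the DT mice. These levels rest on 31, 20 and 9 reads in PBS and 50, 49 and 49 in DT. The log2 fold change of DT over PBS was 0.89 ± 0.22 (SE), with a 95% interval from 0.38 to 1.40 (limma, adjusted p = 0.283, unadjusted p = 0.00385). Of all tested genes, 1.35% had a smaller p. The pseudocount of 1 RPM is large beside these levels, and on the deposited log2 values without it the difference was 1.53 (limma, adjusted p = 0.392). The exact permutation p on RPM was 0.1, the smallest that 3 against 3 mice allow.

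Il11 (chromosome 7, 4773055 to 4782857), a cytokine of stromal cells that acts through Il11ra1 and Il6st, stood at 2.27, 2.03 and 2.36 RPM in PBS mice 1 to 3 and at 3.04, 3.13 and 3.10 in DT mice 1 to 3. The groups did not overlap and the DT mice were nearly level with each other. The reads behind these values were 41, 38 and 45 in PBS and 51, 59 and 57 in DT. The log2 fold change was 0.35 ± 0.13 (limma, adjusted p = 0.492), with a 95% interval from 0.05 to 0.65.

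Lif and Osm are neighbours on chromosome 11 (Osm at 4236420 to 4241026, Lif at 4257557 to 4272514), and both encode ligands of receptors that contain Il6st. Lif stood at 55.6, 39.1 and 38.2 RPM in PBS mice 1 to 3 and at 52.8, 54.4 and 56.9 in DT. PBS mouse 1 lay inside the DT range, and the other PBS mice lay well below it. The log2 fold change of Lif was 0.32 ± 0.13, with a 95% interval from 0.02 to 0.61 (limma, adjusted p = 0.529). Without PBS mouse 1, Lif was the only member called, at 0.49 (limma, adjusted p = 0.0167). In that fit 56 of the 16708 genes tested were called higher. The difference of Lif was 0.24 without PBS mouse 2 (limma, adjusted p = 0.739) and 0.23 without PBS mouse 3 (0.666). Osm stood at 11.6, 7.94 and 6.497 RPM in PBS and 11.2, 8.76 and 10.3 in DT. PBS mouse 1 was the highest of the 6 for Osm. Its log2 fold change was 0.22 ± 0.19 (adjusted p = 0.802), or 0.43 without PBS mouse 1 and 0.05 without PBS mouse 3.

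**Figure D1:**
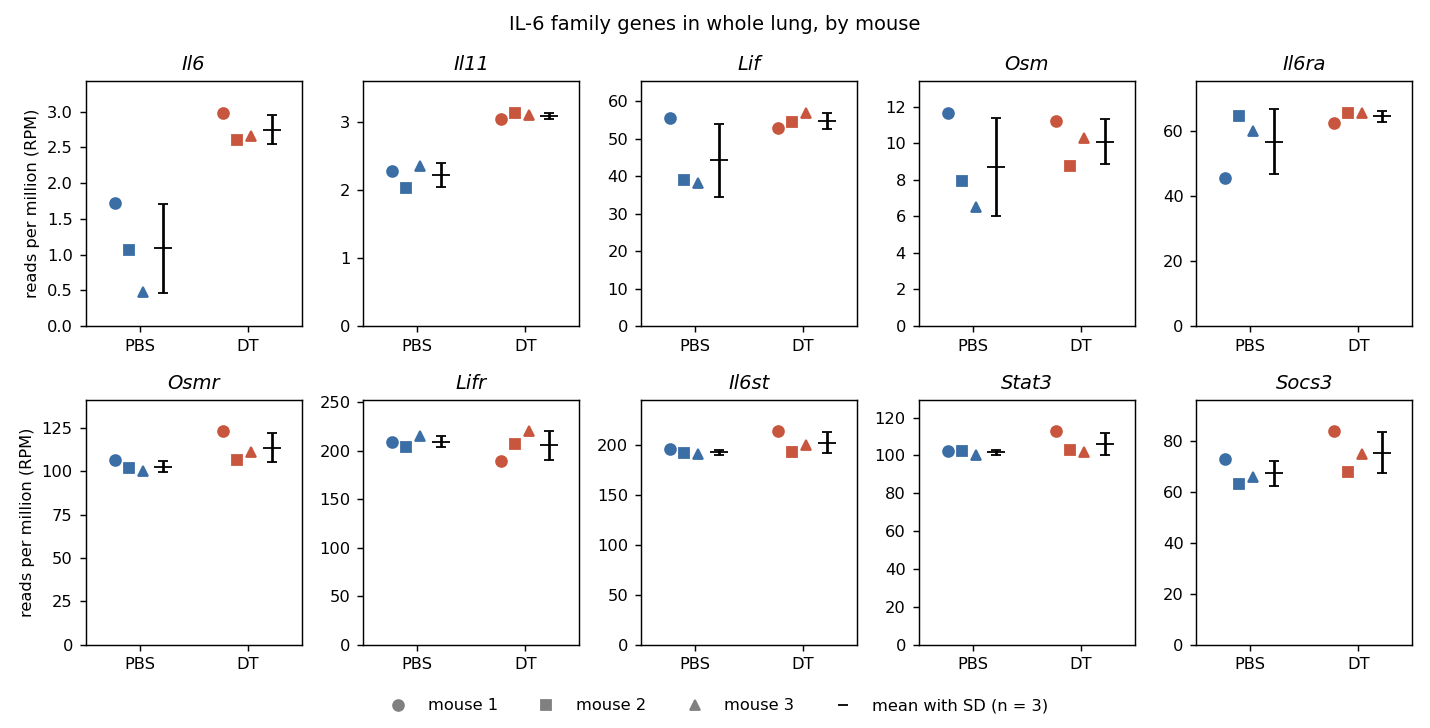
Level of each of the 10 genes in RPM (vertical axes from 0) in the 3 PBS and 3 DT mice, each mouse as a symbol, with the group mean and SD beside them. Il6, Il11 and Osmr do not overlap between groups, while PBS mouse 1 lies inside the DT range for Lif, above every DT mouse for Osm and below all other mice for Il6ra.

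PBS mouse 1 stood apart from the other PBS mice in the ligands, at 2.24 times their mean for Il6, 1.61 times for Osm and 1.44 times for Lif, but only 1.04 times for Il11. Among other inflammatory genes it had 11.2 RPM of Ccl2 against 2.88 and 3.56 in PBS mice 2 and 3, and 5.88 RPM of Cxcl1 against 2.24 and 2.57. Both encode chemokines, for monocytes and neutrophils respectively. The same mouse had 1.78 RPM of the dendritic cell lectin gene Cd209a against 11.6 and 13.1 in the other PBS mice, and 0.87 to 2.03 in DT. The sum of 9 classical dendritic cell markers, Cd209a among them, was 236 to 291 RPM in PBS, lowest in mouse 1, and 175 to 214 in DT. In this sum PBS mouse 1 lay above every DT mouse, unlike for Cd209a alone. The sums did not overlap between groups, and the median log2 fold change of the 9 markers was -1.11. Of these markers 0 of 9 passed the test, and none was at 0. Their part in the differences of the ligands was not tested. In whole-lung RNA, fewer cells of a type and less RNA per cell cannot be told apart.

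Il6ra (chromosome 3, 89869324 to 89913162), the chain that binds IL-6 itself and is carried by myeloid and T cells, stood at 45.4, 64.6 and 60.0 RPM in PBS and 62.4, 65.5 and 65.4 in DT. PBS mouse 1 was the lowest of the 6, and the other PBS mice lay near or within the DT range. The log2 fold change was 0.20 ± 0.11 (adjusted p = 0.675) and 0.05 without that mouse. An antisense gene, Gm42809, shares 242 exonic bases with Il6ra, and no source used here says whether reads were counted by strand. The summed level of 10 neutrophil markers, cells that carry Il6ra and make Osm, was 123 to 137 RPM in PBS and 138 to 166 in DT. That of 7 classical monocyte markers was 324 to 359.9 and 358.5 to 426 RPM. Of the 9 neutrophil and 7 monocyte markers tested, 0 passed in either direction, none was at 0, and their part in the Il6ra and Osm levels was not tested.

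Osmr (chromosome 15, 6813577 to 6874969), the receptor chain for oncostatin M on stromal and endothelial cells, stood at 106, 102 and 99.9 RPM in PBS mice 1 to 3 and at 123, 107 and 111 in DT mice 1 to 3. The groups did not overlap, although PBS mouse 1 (106.3) and DT mouse 2 (106.7) were almost level. The reads were 1917, 1910 and 1907 in PBS and 2061, 2009 and 2043 in DT, so the groups were separate before division by depth as well. The log2 fold change was 0.14 ± 0.06, with a 95% interval from 0.01 to 0.28 (limma, adjusted p = 0.538), and 0.08 without DT mouse 1. On the reads as they stand, with no depth scaling, it was 0.09.

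Lifr (chromosome 15, 7129559 to 7197489), which pairs with Il6st to receive LIF, was the only member with a negative difference. It stood at 209, 203 and 215 RPM in PBS and 189.7, 207 and 219.8 in DT, so DT mice were both the lowest and the highest of the 6. Its log2 fold change was -0.03 ± 0.06, with a 95% interval from -0.17 to 0.11, and 0.03 without DT mouse 1. Il6st (chromosome 13, 112475008 to 112506860) stood at 195, 191 and 190.4 RPM in PBS and 213, 193 and 199 in DT. Its log2 fold change was 0.07 ± 0.05, with an interval from -0.05 to 0.18, and 0.03 without DT mouse 1.

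Stat3 (chromosome 11, 100885098 to 100939540) stood at 102.40, 102.43 and 100.03 RPM in PBS and 112.6, 103.0 and 101.9 in DT. DT mouse 1 was high and the other DT mice lay among or just above the PBS mice. The log2 fold change was 0.06 ± 0.05 (limma, adjusted p = 0.797), or 0.01 without DT mouse 1. Stat3 shares 72 exonic bases with Stat5a on the other strand. Socs3 (chromosome 11, 117966079 to 117970047) stood at 72.8, 63.0 and 65.9 RPM in PBS and 83.7, 67.7 and 74.9 in DT. The groups overlapped, since PBS mouse 1 lay above DT mouse 2. Its log2 fold change was 0.16 ± 0.08, with an interval from -0.03 to 0.35 (adjusted p = 0.628), and 0.08 without DT mouse 1.

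**Figure D2:**
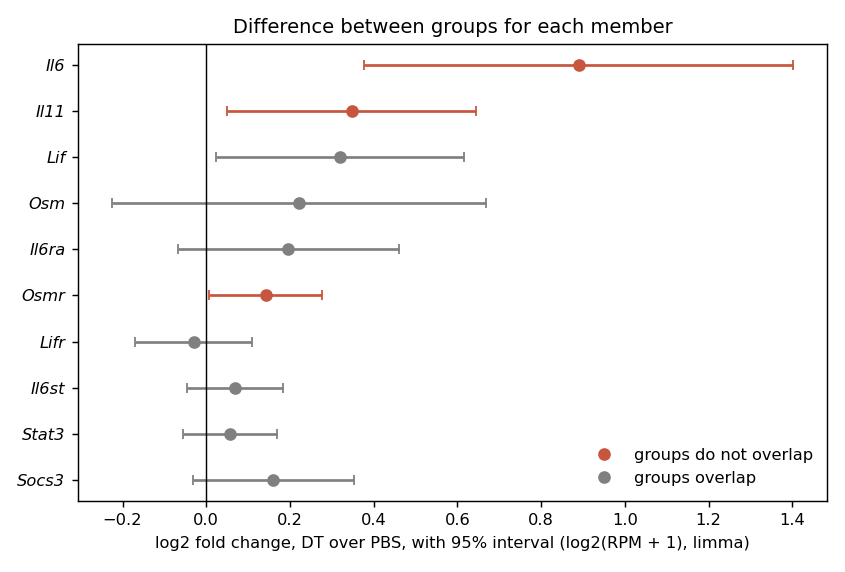
Log2 fold change of DT over PBS on the log2(RPM + 1) scale (horizontal axis) for each member, with its 95% interval from limma. Intervals for Il6, Il11, Lif and Osmr lie above 0, from 0.38 to 1.40 for Il6 and from 0.01 to 0.28 for Osmr, but no member passed after adjustment over all genes.

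DT mouse 1 was the highest of the 6 mice for 5 members: Il6, Osmr, Il6st, Stat3 and Socs3. It was also the least deeply sequenced library, with 16766382 reads in total against 18027304 to 19084658 in the others. Stat3 had 1846 to 1940 reads and Il6st 3517 to 3666 reads over the 6 libraries, a spread of 5.09% and 4.24% of the lowest, and DT mouse 1 did not have the most reads of either. It had the most reads as well as the highest RPM for Il6 (50), Osmr (2061) and Socs3 (1404). Lifr reads ran from 3181 in DT mouse 1, the shallowest library, to 4112 in PBS mouse 3, the deepest, a spread of 29.3%. The part of depth in these levels was not tested. With no depth scaling, an alternative added after seeing the data, the log2 fold changes were 0.01 for Stat3, 0.02 for Il6st and 0.11 for Socs3, and 0.86 for Il6, 0.31 for Il11 and 0.27 for Lif. The median of all genes tested was -0.05 in that fit, against 0.00 in the main fit.

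Levels of different genes were compared per length of exon, in RPM per kb. Socs3 was highest (mean of 6 mice 24.7), then Lifr (19.2), Il6st (17.8), Lif (11.4), Stat3 (10.9), Osmr (8.93), Il6ra (7.01), Osm (4.13), Il11 (1.28) and Il6 (0.790). The ranges over the 6 mice overlapped between Lifr and Il6st, between Lif and Stat3 and between Il11 and Il6, and not between the other neighbours in that order. These levels may not follow abundance for well-covered genes. In the deposited values, reads per exonic base stopped close to 1: the median of 16471 tested genes was 0.137, the 99th percentile 0.583, and 3 genes exceeded 1. Sftpc, the surfactant gene that defines alveolar type 2 cells and is normally among the most abundant lung transcripts, was present at only 8.12 to 9.30 RPM, while Sftpa1 stood at 124 to 139.9. Socs3 lay at 0.450 reads per exonic base, Lifr at 0.353 and Il6st at 0.324, against 0.0143 for Il6 and 0.0233 for Il11. Whether this narrows differences of the well-covered members, of other well-covered genes or of the summed cell type markers was not tested.

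**Figure D3:**
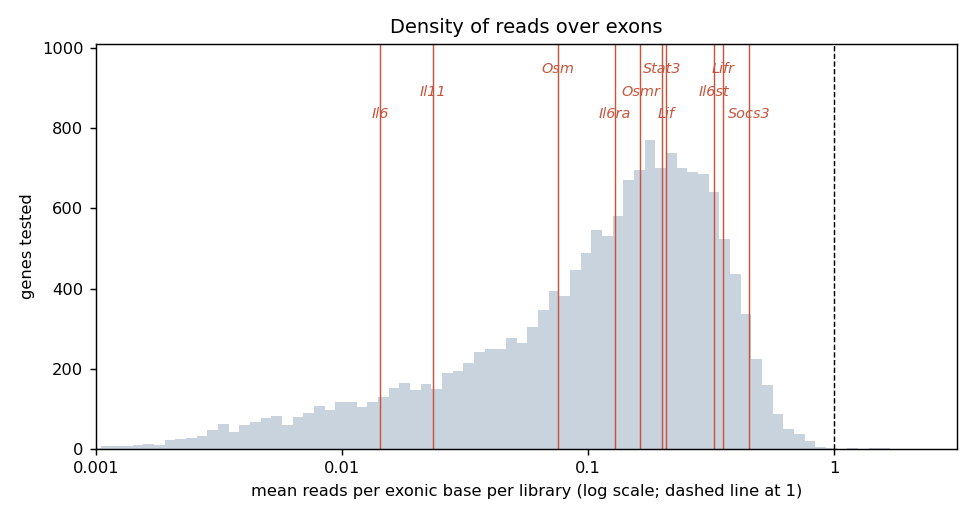
Mean reads per exonic base and library (horizontal axis, log scale, from 0.001) for the tested genes with a known exonic length (vertical axis, number of genes), with the 10 members as vertical lines. Genes crowd below the dashed line at 1, where Socs3 (0.450), Lifr (0.353) and Il6st (0.324) lie, and Il6 (0.0143) and Il11 (0.0233) are far to the left.

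Other cytokines and receptors of the family, in lists chosen for their roles, lay mostly below 0, and none passed the test. Of 6 other family cytokines tested, 0 passed in either direction and 5 were negative, with a median of -0.07. Of all genes tested 50.4% were positive. Ebi3, a subunit of the dendritic cell and macrophage cytokine IL-27, stood at 5.05, 5.49 and 6.03 RPM in PBS and 4.29, 4.46 and 4.79 in DT. Its groups did not overlap, and its log2 fold change was -0.24 ± 0.13 (limma, adjusted p = 0.629). Clcf1, a cytokine that acts through Cntfr, differed by -0.16 ± 0.11 (-0.08 without PBS mouse 3), and its groups overlapped. Without DT mouse 2, 3 of the 6 cytokines were positive. Of 3 other receptor chains tested, 0 passed and all 3 were negative: Cntfr, the receptor chain for ciliary neurotrophic factor (-0.28 ± 0.09), Il27ra (-0.13 ± 0.10) and Il11ra1, which receives IL-11 (-0.09 ± 0.07). Il27ra was at -0.04 without PBS mouse 3 and Il11ra1 at -0.03 without DT mouse 1. Cntfr had 14.1, 15.3 and 15.5 RPM in PBS and 11.5, 12.96 and 12.1 in DT, with no overlap (limma, adjusted p = 0.450). The groups did not overlap for Il11ra1 either, although PBS mouse 3 (36.73 RPM) and DT mouse 3 (36.71 RPM) were almost level. Thus 1 cytokine and 2 receptor chains were lower without overlap and 0 higher, against 6.79% and 7.65% of all genes. The proteases that shed the IL-6 receptor from cells, Adam10 and Adam17, differed by 0.05 ± 0.06 and 0.08 ± 0.05.

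Genes of Janus kinase and STAT signalling lay close to 0. Of 24 tested, 0 passed, 11 were positive and 13 negative, with a median of 0.00. The phosphatase genes Ptpn11 (0.05 ± 0.05), which also carries signals from the shared receptor chain, and Ptpn1 (0.08 ± 0.05) were the most abundant. Stat4, which acts downstream of IL-12 (-0.26 ± 0.16), and Socs1, an inhibitor of Janus kinases (-0.13 ± 0.15), were among those furthest from 0. Socs1 stood at 25.0 RPM in PBS mouse 1, against 16.4 to 18.3 in the other 5 mice, and without that mouse its difference was 0.05.

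Known targets of STAT3 and acute-phase genes were mostly on the positive side. Of 31 tested, 28 were positive, against 50.4% of all genes, and the median log2 fold change was 0.11. After adjustment 1 was higher and 0 lower, against 0.275% and 0.00599% of all genes. The groups did not overlap for 7 genes that were higher in DT and 1 that was lower, against 7.65% and 6.79% of all genes. With no depth scaling 21 of the 31 were positive, as they also were without DT mouse 1, when all genes tested had medians of -0.05 and -0.01. In these fits 5137 and 7231 of the 16708 genes tested were positive, respectively. The gene called was Serpina3m, a serine protease inhibitor of the acute phase. It stood at 6.88, 8.05 and 5.29 RPM in PBS and 15.03, 16.9 and 18.3 in DT (log2 fold change 1.21 ± 0.15, limma, adjusted p = 0.0188). Serpina3m belongs to a cluster of closely related copies whose reads can be shared. Its call was lost with scaling by TMM (limma, adjusted p = 0.0512), by median of ratios (0.0530) or by no depth factor (0.101). It was also lost without DT mouse 1 (0.141) or DT mouse 3 (0.105). With the replicate number as a block the call was lost too (0.157, or 0.171 with median-of-ratios scaling). Fosl2, which encodes an AP-1 subunit, stood at 147, 139 and 148 RPM in PBS and 185, 166 and 171 in DT, with no overlap (0.27 ± 0.05, adjusted p = 0.158). Ccl2 (0.76 ± 0.38, adjusted p = 0.606) passed only without PBS mouse 1, at 1.27 (adjusted p = 0.0193), and was at 0.44 without PBS mouse 2. Mcl1, an abundant survival gene, differed by 0.03 ± 0.05.

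**Figure D4:**
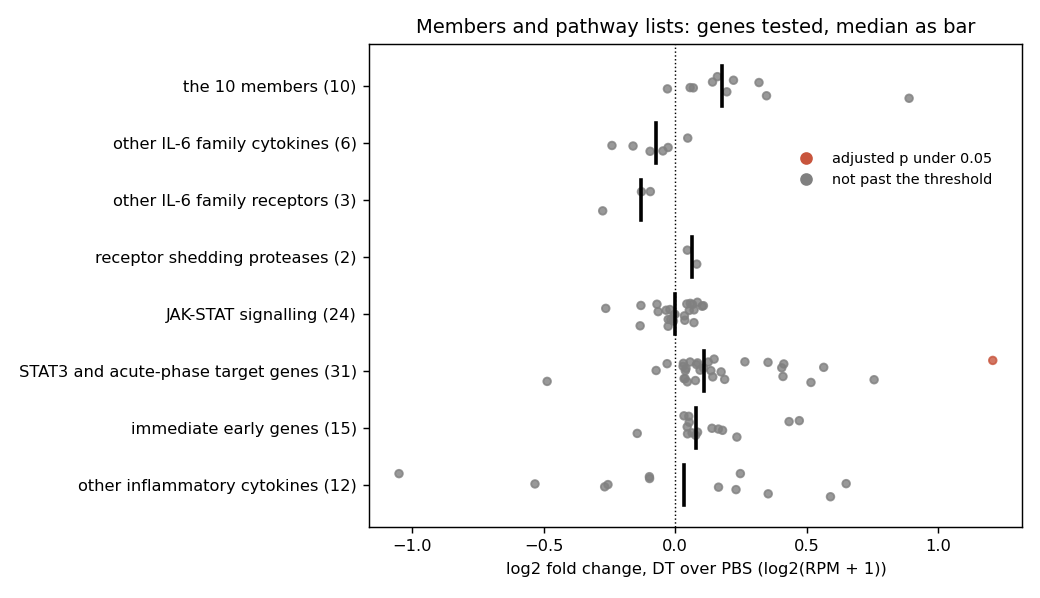
Log2 fold change of DT over PBS (horizontal axis, log2(RPM + 1) scale) for every tested gene of the members and of 7 pathway lists, with the list median as a bar and the number tested in brackets. The medians run from -0.13 for the other receptors to 0.18 for the members, and Serpina3m (1.21) is the only gene past the adjusted threshold.

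Immediate early genes, which are induced within minutes of a stimulus, had 14 of 15 positive, 0 past the test and a median of 0.08. Of all genes tested 50.4% were positive. The groups did not overlap for 2 immediate early genes that were higher in DT and 1 that was lower, against 7.65% and 6.79% of all genes. With no depth scaling 11 were positive and the median was 0.03, while 5137 of all 16708 genes tested were positive. Without DT mouse 1, 12 were positive and the median was also 0.03, while 7231 of all genes tested were positive. Atf3, a stress-induced transcription factor, stood at 33.4, 19.8 and 24.3 RPM in PBS and 34.1, 34.5 and 34.9 in DT. PBS mouse 1 lay just below the DT mice and the other PBS mice further below (0.43 ± 0.16, limma, adjusted p = 0.476, and 0.63 with adjusted p = 0.0483 without that mouse). The difference of Atf3 was 0.26 without PBS mouse 2. Egr1 stood at 98.6 to 115 RPM in PBS and 116 to 120.1 in DT, without overlap (0.16 ± 0.06). Fosb (0.47 ± 0.24) and Jun (0.06 ± 0.07), subunits of AP-1, overlapped between groups. Of 12 other inflammatory cytokines tested, 0 passed, 6 were positive and 6 negative, with a median of 0.03. The groups did not overlap for 1 that was higher in DT and 2 that were lower, against 7.65% and 6.79% of all genes. Il33, an alarmin of lung epithelium and stroma, stood at 72.2, 75.3 and 72.8 RPM in PBS and 97.4, 79.6 and 83.1 in DT, with no overlap (0.23 ± 0.07, adjusted p = 0.418). Il12b, the shared subunit of IL-12 and IL-23 made by dendritic cells and macrophages, pointed the other way (-1.05 ± 0.33, limma, adjusted p = 0.412). It stood at 0.888, 2.98 and 3.46 RPM in PBS and 0.835, 0.690 and 0.218 in DT, with no overlap. As for Il6, the pseudocount is large beside these levels, and on the deposited log2 values the difference of Il12b was -2.06 (limma, adjusted p = 0.443). Cxcl1 (0.65 ± 0.29) and Il1a, an alarmin of the IL-1 family (-0.26 ± 0.14), overlapped between groups.

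Among structural cells known to express members of the family, summed markers overlapped between groups. Those of 7 fibroblast genes were 690.0 to 724 RPM in PBS and 699 to 753 in DT, those of 7 endothelial genes 812 to 853 and 822 to 902, and those of 7 smooth muscle and pericyte genes 614 to 626 and 612 to 617. In each of these lists 0 members passed and none was at 0. Of 8 erythroid markers, 7 were called higher in DT, against 0.275% of all genes. The sum of the 8 was 49 to 77.7 RPM in PBS and 214 to 289.8 in DT. Their part in the members' levels was not tested.

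Genes whose levels most resembled a member over the 6 mice were taken from those with a mean of at least 5 RPM, with Pearson's r on log2(RPM + 1) as a description only. Il6 was most like Rg9mtd1 (0.980), Mrps22 (0.979) and Tbk1 (0.979). Osm was most like 1110007C09Rik (0.998), Ifrd1 (0.989) and Lox (0.988). Socs3 was most like Rps15 (1.00), Nnat (0.995) and Nsf (0.992), and Stat3 like Tpi1 (0.996), Ehd4 (0.996) and Tjp1 (0.996). With 6 mice and 13736 or 13737 genes such values are common: 25 genes exceeded 0.95 for Il6 and 302 for Stat3.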

How the data were processed

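Per gene, the authors gave values in log2 RPM (a reads-per-million scale). FastQC, Trimmomatic and build mm10 are named, per the submitters' processing notes, without versions. No source used here names the aligner, the counter, the strand setting or the treatment of duplicate reads. The kit selects mRNA, per the labels' protocols. On the linear scale, 100% of the values came out as whole reads, within 0.1%, once the lowest value (0.9 of a read) was set to 0. This returned reads and totals of 16766382 to 19084658 per library. A count of 0 allows up to 3 reads, or 0.157 to 0.179 RPM (counting error only). Groups came from the sample titles, and p-values measure only the spread between these mice.

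limma 3.58.1 (R 4.3.3) compared DT with PBS on log2(RPM + 1), 2-sided, with Benjamini-Hochberg adjustment and a threshold of 0.05. It tested 16708 genes with at least 0.538 RPM (10 reads at median depth) in 3 libraries and 15 reads in all, which included all 10 members. The script was tested on simulated data. Exonic lengths came from GENCODE M21 and upstream sequences from RefSeq (GRCm38.p6). The members, lists and cell type markers were chosen with earlier results of these data known, and the AP-1 and NF-kappaB motifs after the data were seen. All members are named. Of each list, genes past the threshold are named, with the 2 most abundant and the 2 furthest from 0 among those with a mean of at least 1 RPM; 1 gene that this rule names is not reported here. Alternatives were TMM and median-of-ratios scaling, other filters and pseudocounts, limma-voom, a replicate block, each mouse left out and, added after seeing the data, no depth scaling.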

Additional observations from a re-analysis of the deposited data

How the results depend on the processing

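No member passed under any alternative that kept all 6 mice. With each mouse left out, the number of members called higher ran from 0 to 1 (Lif, without PBS mouse 1). The number of genes called over all genes depended on the setting. In place of 46 higher and 1 lower, median-of-ratios scaling and the trimmed mean of M-values each gave 0 lower, no depth scaling gave 17 and 0, and leaving out mice gave 0 to 56 higher and 0 to 90 lower. There were 0 higher without DT mouse 1 and 14 without DT mouse 3, and 10 lower without PBS mouse 1 and 90 without DT mouse 2. The fit with the replicate number as a block gave 8 and 0, or 1 and 0 with median-of-ratios scaling, and in both the limma adjusted p of Serpina3m missed the threshold (0.157 and 0.171). The mice share only a number: deviations of same-numbered mice had correlations of 0.0845, 0.268 and -0.0996, and not every mouse correlated best with its own number. The direction of 9 members was the same under all 16 alternatives. Lifr ran from -0.0791 to 0.0265 with mice left out. Of the other genes named, Adam10 ran from -0.00884 to 0.0893, Socs1 from -0.225 to 0.0461, Mcl1 from -0.0169 to 0.0629 and Jun from -0.0117 to 0.111. With no depth scaling Adam10 was at -0.0044 and Mcl1 at -0.0206, and the median of all genes tested was -0.047, against 0.00 in the main fit. The cause was not tested. Il6 and Il11 rest on 9 to 59 reads a library, which limits their precision.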
